A study of Mus musculus with 9 samples.

Results

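The genes described here are 10 regulators of salivary epithelial lineages, namely the transcription factors *Sox2*, *Sox9*, *Sox10*, *Trp63*, *Bhlha15*, *Ascl3*, *Elf5* and *Tfcp2l1*, the receptor tyrosine kinase *Kit* and its ligand *Kitl*. They were chosen by name, and all 10 were found in the normalized table among the 48733 rows of the raw count table. RNAseq was performed on the submandibular glands (SMGs) of 9 adult male mice on a C57BL/6 background, with 1 unstranded Nextera XT library per mouse: 4 wildtype (WT) and 5 carrying homozygous disruptions of both *Hs3st3a1* and *Hs3st3b1* (DKO), the sulfotransferases that add highly 3-O-sulfated domains to heparan sulfate. The DKO line was made by zinc finger nuclease cleavage of *Hs3st3a1* exon 1 in embryos already carrying an *Hs3st3b1* knockout allele with a LacZ cassette, so both genes are disrupted in every cell of the animal, and which founder line gave these mice is not given in the sources used here. The comparison asks whether the regulators of acinar, duct and basal identity differ in level between DKO and WT glands.

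The adult SMG is built of acini, which secrete water, mucin and enzymes, of intercalated, granular and striated ducts, and of basal and myoepithelial cells that sit on the basement membrane. Bhlha15 (MIST1) drives the secretory architecture of acinar cells. Tfcp2l1, Ascl3 and Elf5 mark duct lineages, Trp63 (p63) maintains basal cells, and Sox2, Sox9 and Sox10 act in the progenitors from which the epithelium forms. KIT is the surface receptor for stem cell factor, the product of *Kitl*, and marks intercalated duct progenitors in this gland.

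Total counts ranged from 20653492 to 37870517 in WT and from 17053746 to 34683690 in DKO. The deleted genes followed the labels: *Hs3st3a1* ranged from 3 to 14 counts among WT libraries and was at 0 throughout the DKO, while *Hs3st3b1* ranged from 67 to 216 and from 7 to 45. Of the DKO libraries, 2 stood apart. DKO replicate 1 held 253648 counts of *Bpifa2*, a secretory protein of the parotid gland, against 99 to 1924 in the other 8 libraries, and DKO replicate 4 held far less *Elf5* than any other library. Where leaving out either library changed an edgeR call of a listed gene, this is given beside the result. Both libraries were picked from these data, so such fits are descriptions and no test of a difference. Leaving out DKO replicate 4 gave the most calls of any single library, 441 genes (3.20% of rows) against 87 with all 9 libraries. Some medians and fold changes near 0 also changed sign, and not all of these are given. Muc19, a mucin of the sublingual gland, had 172 counts in WT replicate 3, 155 in DKO replicate 4 and at most 18 elsewhere. Because this is bulk tissue, fewer cells of a type and less RNA per cell cannot be told apart.

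Of the 9 lineage genes that could be tested, *Elf5* varied most between DKO libraries, and its annotated starts are shown for that reason. RefSeq (GRCm38.p6) places 2 starts of *Elf5* on the plus strand of chromosome 2, 11970 bases apart, at 103412098 and 103424068. The windows chr2:103411848-103412127 and chr2:103423818-103424097 are printed 5′ to 3′ with the bases before the start in lower case and the first 30 bases from the start on in capitals.
Elf5 start 1: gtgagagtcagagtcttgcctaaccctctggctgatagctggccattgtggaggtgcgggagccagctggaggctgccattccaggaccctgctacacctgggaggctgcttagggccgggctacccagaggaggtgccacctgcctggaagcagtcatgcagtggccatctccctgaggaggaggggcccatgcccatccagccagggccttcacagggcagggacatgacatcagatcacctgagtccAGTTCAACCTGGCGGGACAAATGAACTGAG
Elf5 start 2: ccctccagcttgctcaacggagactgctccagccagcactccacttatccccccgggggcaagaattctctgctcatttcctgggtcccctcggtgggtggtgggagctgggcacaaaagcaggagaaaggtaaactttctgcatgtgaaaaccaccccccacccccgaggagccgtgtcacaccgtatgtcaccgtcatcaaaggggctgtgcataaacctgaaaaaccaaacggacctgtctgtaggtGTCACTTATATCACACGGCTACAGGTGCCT
The deposited counts are 1 number per gene, so transcripts from these starts are summed in every *Elf5* value. Promoter entries were found for 7 of the 10 lineage genes.

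In GENCODE M21 (GRCm38), the genes are spread over 9 chromosomes, with *Bhlha15* and *Kit* both on chromosome 5. The annotation places *Bhlha15* (ENSMUSG00000052271) on chromosome 5 from 144190286 to 144194441 and *Tfcp2l1* (ENSMUSG00000026380) on chromosome 1 from 118627945 to 118685168. The remaining duct genes are *Ascl3* (ENSMUSG00000035951) on chromosome 7 from 109727465 to 109731726 and *Elf5* (ENSMUSG00000027186) on chromosome 2 from 103411688 to 103450989. The basal and rare factors are *Trp63* (ENSMUSG00000022510) on chromosome 16 from 25683763 to 25892102 and *Sox2* (ENSMUSG00000074637) on chromosome 3 from 34650405 to 34652461. The SoxE factors are *Sox9* (ENSMUSG00000000567) on chromosome 11 from 112782224 to 112787760 and *Sox10* (ENSMUSG00000033006) on chromosome 15 from 79154908 to 79165240. The receptor and ligand are *Kit* (ENSMUSG00000005672) on chromosome 5 from 75574916 to 75656722 and *Kitl* (ENSMUSG00000019966) on chromosome 10 from 100015630 to 100100416.

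The 10 genes differed widely in level. In WT, in reads per kilobase of exon scaled to the TMM library size (RPKM), *Bhlha15* was at 57.5 ± 18.6 (SD, n = 4), *Sox9* at 37.7 ± 4.61 and *Tfcp2l1* at 33.4 ± 3.20, and the WT ranges of these neighbours in the order overlapped. A gap followed. *Ascl3* at 5.34 ± 0.849, *Elf5* at 5.34 ± 0.787, *Sox10* at 4.55 ± 1.20, *Kitl* at 4.07 ± 0.879 and *Kit* at 2.69 ± 0.825 formed a middle group in which each neighbour overlapped the next. *Trp63* lay below all of these at 0.586 ± 0.107 RPKM and *Sox2* lowest at 0.0270 ± 0.0323, and neither overlapped its neighbour.

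**Figure D1:**
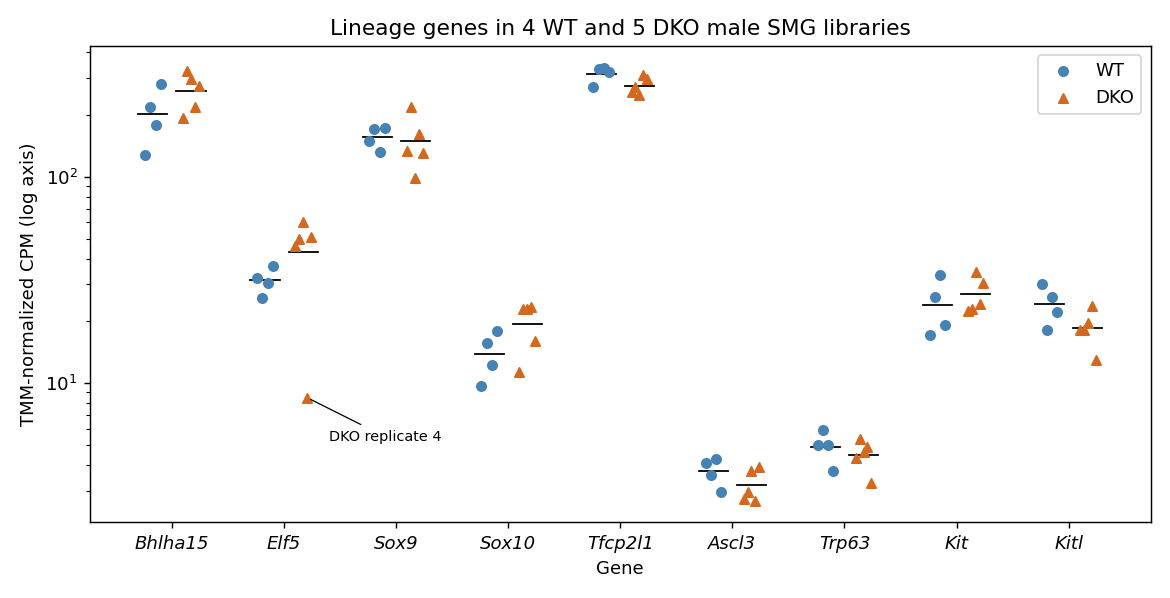
TMM-normalized CPM (read counts scaled to library size, log axis) of 9 lineage genes in the 4 WT (circles) and 5 DKO (triangles) libraries, with the group mean as a bar; *Sox2*, with at most 6 counts, is not drawn. The groups overlap for every gene, and the single distant point is *Elf5* in DKO replicate 4 at 8.46 CPM.

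None of the 9 lineage genes with enough counts to test passed the comparison of DKO with WT. In edgeR's quasi-likelihood fit, with p-values adjusted by Benjamini-Hochberg across 13842 rows, 0 of 9 were under 0.05, where 0.629% of all rows were. At an unadjusted p under 0.05 the count was also 0, against 14.5% of all rows. DESeq2 called 0 of 9 (4.35% of its rows were called) and limma-voom with sample quality weights called 0 of 9 (1.07% of rows). The 4 WT and 5 DKO values did not separate for any of the 9 genes, whereas they did for 6.00% of all rows. The log2 fold changes of DKO over WT ran from −0.38 (*Kitl*) to 0.47 (*Sox10*), 4 positive and 5 negative, with a median of −0.07 beside 0.01 for all rows.

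**Figure D2:**
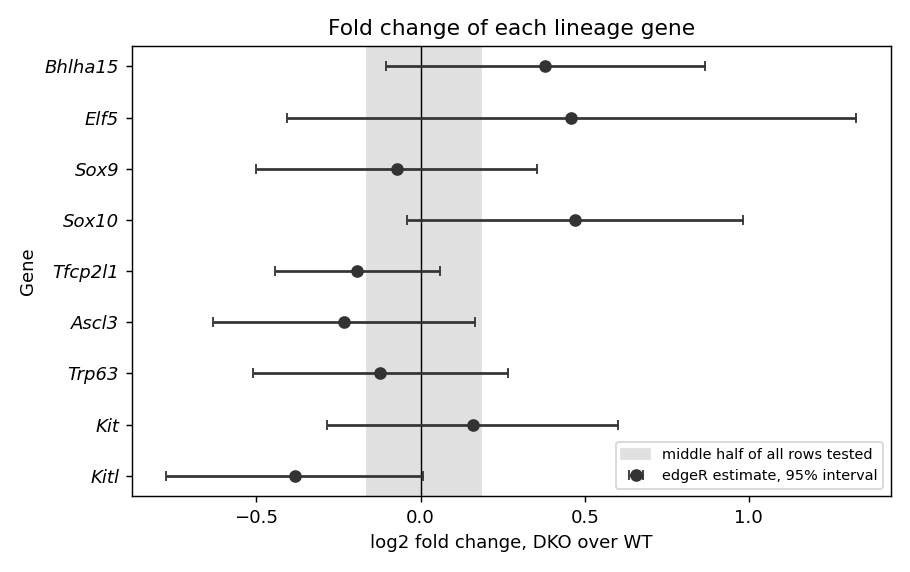
Log2 fold change of DKO over WT for the 9 tested lineage genes (points) with 95% intervals (bars), beside the band that holds the middle 50 percent of all 13842 rows tested. Every interval includes 0, and that of *Elf5*, from −0.41 to 1.33, is the widest.

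In the acinar lineage, *Bhlha15* was on average higher in DKO but within the spread of the libraries. It stood at 127, 218, 178 and 280.4 CPM in WT replicates 1 to 4 and at 192, 325, 298, 218 and 274 CPM in DKO replicates 1 to 5. WT replicate 1 was the lowest of all 9 libraries and 2 DKO libraries exceeded every WT library. The means were 201 ± 64.8 (SD, n = 4) and 261 ± 55.4 CPM (SD, n = 5), a fold change of 1.301 (95% interval 0.929 to 1.82, log2 0.38, SE 0.22, edgeR adjusted p = 0.482, exact two-sided permutation p = 0.159).

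Known targets of Bhlha15 were examined beside it. The list held *Rab3d* and *Rab26*, small GTPases of secretory granules, *Gjb1*, a gap junction subunit of acinar cells, *Copz2*, a coatomer subunit, and *Atp2c2*, a Golgi calcium pump. None of the 5 passed edgeR's adjusted test, but all 5 had a positive log2 fold change, with a median of 0.71, and DESeq2 called 4 of them higher in DKO and gave no adjusted p for *Atp2c2*. *Rab3d* was 202 CPM in WT (178 to 216) and 281 CPM in DKO (238 to 341), with no overlap (log2 0.48, SE 0.13, adjusted p = 0.0923 by edgeR and 0.00879 by DESeq2). *Gjb1* was 56.2 CPM in WT (44.9 to 68.6) and 98.5 CPM in DKO (67.3 to 132), with ranges that just overlapped (log2 0.81, SE 0.21, adjusted p = 0.0834 by edgeR and 0.0065 by DESeq2). *Copz2* and *Rab26* had log2 fold changes of 0.62 and 0.71, called by DESeq2 and not by edgeR. Without DKO replicate 4, a fit in which 3.20% of all rows were called in either direction, edgeR called *Gjb1* (log2 0.92, adjusted p = 0.0297), *Rab3d* and *Atp2c2* higher. The *Atp2c2* estimate of 6.18 rests on DKO replicate 3, which had 1015 counts where the other DKO libraries had 17 to 42 and the WT libraries 1 to 7. The list of 8 acinar secretory and channel genes had 7 tested, all positive, with a median of 0.66 and 0 called by edgeR and 3 by DESeq2, namely *Pip*, *Car6* and *Mucl2*, which encode salivary secretory proteins. The ratio of *Bhlha15* to *Aqp5*, the acinar water channel, per length and within a library, was 0.561 ± 0.102 in WT and 0.545 ± 0.152 in DKO, and these overlapped. Against *Pip*, the same ratio was 0.00601 ± 0.00151 in WT and 0.00389 ± 0.000693 in DKO, a log2 difference of −0.61, also with overlap.

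MIST1 binds the E-box CATATG, which reads the same on both strands, and this motif was searched in the RefSeq promoter entries of the target genes. It occurs in 3.91% of all 32851 entries, in 1 of the 4 entries of *Gjb1* and in 0 of the single entries of *Rab3d* and *Copz2*. The *Gjb1* match lies on the plus strand of chrX:101383673-101383758, starting 19 bases before the annotated start, and is shown in capitals because *Gjb1* had the lowest edgeR p of the list.
Gjb1: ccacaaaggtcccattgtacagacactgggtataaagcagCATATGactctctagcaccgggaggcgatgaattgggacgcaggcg
A match is a description of these letters and not evidence of binding.

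Of the duct regulators, *Tfcp2l1*, a factor of striated and other resorptive ducts, had a lower mean in DKO, within the spread of the libraries. It stood at 272, 333, 338 and 320.4 CPM in WT and at 256, 271, 248, 310.3 and 297 CPM in DKO. WT replicate 1 fell inside the DKO range, and 3 DKO libraries lay below every WT library. The log2 fold change was −0.19 (SE 0.12, 95% interval −0.44 to 0.06, edgeR adjusted p = 0.496, exact permutation p = 0.0952), from means of 316 ± 30.2 (SD, n = 4) and 276 ± 26.7 CPM (SD, n = 5). *Tfcp2l1* was among the steadier genes, with an SD on the log2 scale of 0.14 in each group. Granular duct products differed more. Of 8 such genes, 7 had lower, non-overlapping DKO values, the list median was −1.84, edgeR called 0 and DESeq2 called 8, with *Klk1* in the opposite direction at 0.58. Without DKO replicate 4, where 3.20% of all rows were called in either direction, edgeR called 5 of the 8 lower, including *Egf* (adjusted p = 0.0370). It called 4 lower without WT replicate 2 and 0 when any other single library was left out. Set against *Egf*, the growth factor stored in granular ducts, the *Tfcp2l1* ratio was 0.0694 ± 0.0328 in WT and 0.303 ± 0.273 in DKO without overlap, a description in which the *Egf* difference enters directly.

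*Ascl3*, which marks a duct population that includes ionocyte-like cells, stood at 4.11, 3.59, 4.29 and 2.96 CPM in WT and at 2.72, 2.96, 3.76, 2.69 and 3.92 CPM in DKO. The groups overlapped, with 3 DKO libraries below every WT library. Of these, DKO replicate 2 (2.9614 CPM, 72 counts) was nearly tied with WT replicate 4 (2.9616 CPM, 69 counts). The log2 fold change was −0.23 (SE 0.18, 95% interval −0.63 to 0.17, edgeR adjusted p = 0.634, exact permutation p = 0.175). Of the 10 ionocyte genes tested, 0 were called by edgeR, 4 were positive and 6 negative, and the median was −0.10. DESeq2 called 1 of them, *Atp6v1c2*, a proton pump subunit, at a log2 fold change of −0.89.

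*Elf5*, an ETS factor of secretory and luminal progenitors, gave the one split among the DKO libraries. It stood at 32.2, 25.8, 30.4 and 37.0 CPM in WT and at 46.1, 49.9, 60.2, 8.46 and 51.1 CPM in DKO. The other 4 DKO libraries were all above every WT library, and replicate 4 was below every WT library. With all libraries the log2 fold change was 0.46 (SE 0.40, 95% interval −0.41 to 1.33, edgeR adjusted p = 0.670, exact permutation p = 0.810), and the DKO SD on the log2 scale, 1.14, lay at percentile 99.1 of all rows. Without DKO replicate 4 the log2 fold change was 0.72, the groups did not overlap (10.7% of rows did not), and edgeR called *Elf5* higher at a Benjamini-Hochberg adjusted p of 0.0221, where 1.16% of rows were called higher. With DKO replicates 1 and 4 both left out, a setting chosen after seeing the data, it was 0.78 with an edgeR adjusted p of 0.0267. DKO replicate 4 was singled out by its *Elf5* value, so the fits without it describe the split and are no test of a difference. In the other 21 alternatives *Elf5* was not called.

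*Elf5* shared this pattern with 42 other rows. Of 13842 rows, 43 (0.311%), *Elf5* included, had their lowest value in DKO replicate 4 while the other 4 DKO libraries exceeded all WT libraries, and the same count for each of the other DKO libraries was 16 to 34. They included *Mob3b*, a kinase regulator, at 3.83 CPM in that library against 39.4 to 88.0 CPM in WT and 122 to 317 CPM in the other DKO libraries. They also included *Rars* and *Aars*, tRNA synthetases, and *Eif2s2*, an initiation factor subunit, with smaller gaps below WT. In DKO replicate 4 *Rars* was 44.0 CPM against 44.5 to 68.0 CPM in WT, nearly tied with the lowest WT library. *Eif2s2* was 63.8 against 64.2 to 81.9 CPM, also nearly tied, and *Aars* was 44.8 against 51.0 to 58.0 CPM. *Muc19*, with 155 counts in DKO replicate 4, had 172 in WT replicate 3, in which *Elf5* was 30.4 CPM, and its part in the *Elf5* value was not tested.

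**Figure D3:**
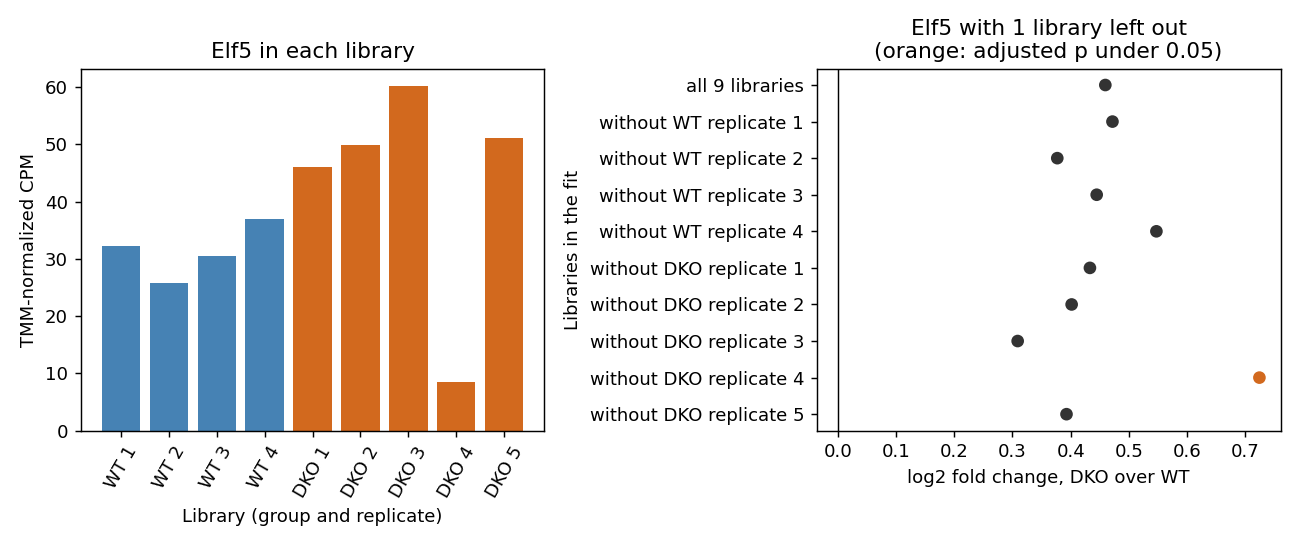
Left, *Elf5* in TMM-normalized CPM in each WT (blue) and DKO (orange) library. Right, the log2 fold change of DKO over WT with all 9 libraries and with each left out in turn (orange marks an edgeR adjusted p under 0.05), which runs from 0.31 to 0.72 and is called only without DKO replicate 4.

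In the basal lineage, *Trp63* stood at 5.00, 5.93, 4.99 and 3.73 CPM in WT and at 4.34, 5.35, 4.63, 4.90 and 3.26 CPM in DKO. The groups overlapped almost fully. The log2 fold change was −0.12 (SE 0.18, 95% interval −0.51 to 0.27, edgeR adjusted p = 0.822, exact permutation p = 0.508), or 0.702-fold to 1.20-fold. The gene has 8 annotated transcripts, which the counts do not distinguish. Of 14 basal genes and p63 targets, edgeR called 0, with 5 positive, 9 negative and a median of −0.31. *Krt17*, *Krt14* and *Lamb3*, keratins and a laminin chain of basal cells, had log2 fold changes of −0.88, −0.70 and −0.64 and were called lower by DESeq2, with edgeR adjusted p of 0.0506, 0.0570 and 0.0506. Without DKO replicate 4 edgeR called 4 lower, *Krt17* (adjusted p = 0.0167), *Lamb3* (0.0188), *Krt14* (0.0218) and *Krt5* (0.0314), and without DKO replicate 1 it called 0. *Itgb4*, a hemidesmosome integrin, was 0.41 in the other direction. Of the 7 myoepithelial contractile genes, edgeR called 5 lower, with a median of −1.09, among them *Tpm2*, a tropomyosin, at −1.09 (adjusted p = 0.0312) and *Tagln*, an actin-binding protein, at −1.47 (adjusted p = 0.0478). The calls depended on the libraries while the median stayed between −0.999 and −1.25: edgeR called 7 lower without WT replicate 2 or DKO replicate 4, 1 without DKO replicate 3, and 0 without any 1 of the other 6 libraries or with the replicate block. The *Trp63* to *Acta2* ratio was 0.00276 ± 0.00104 in WT and 0.00540 ± 0.00177 in DKO, with overlap.

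Among the Sox genes, *Sox9*, of duct progenitors, was at 148, 169.5, 132 and 173 CPM in WT and at 134, 217, 98.3, 161 and 129.7 CPM in DKO. The DKO libraries included both the highest and the lowest of the 9. The log2 fold change was −0.07 (SE 0.20, 95% interval −0.50 to 0.36, edgeR adjusted p = 0.916, exact permutation p = 0.635), and it was 0.045 without DKO replicate 3.

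*Sox10*, a factor of the distal progenitors and of neural crest derivatives such as Schwann cells, stood at 9.64, 15.6, 12.3 and 17.9 CPM in WT and at 11.3, 22.7, 22.7, 23.3 and 16.03 CPM in DKO. Of the DKO libraries, 3 exceeded every WT library. The log2 fold change was 0.47 (SE 0.23, 95% interval −0.04 to 0.98, unadjusted p = 0.0684, edgeR adjusted p = 0.393, exact permutation p = 0.175), the highest of the 9 genes, and its interval includes 0. Of 9 Schwann cell markers tested, 0 were called, and the median was −0.06 (0.043 without DKO replicate 1). The summed level of all 11 listed was 62.2 to 69.4 CPM in WT and 51.5 to 68.8 CPM in DKO. The ratio of *Sox10* to *Sox9* per length was 0.120 ± 0.0224 in WT and 0.187 ± 0.0769 in DKO. They overlapped (log2 difference 0.57, exact two-sided permutation p = 0.0952, 0.190 after Benjamini-Hochberg adjustment over 2 ratios chosen after the values were seen).

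*Sox2*, a progenitor factor of the fetal gland and of the sublingual gland, was close to absent, at 2, 0, 6 and 0 counts in WT replicates 1 to 4 and at 0 in every DKO replicate but the fourth, which had 3. These counts were too few to test, and no fold change is given. The libraries with the most *Sox2* in each group, WT replicate 3 and DKO replicate 4, were also those with the most *Muc19*, at 172 and 155 counts, and the part of sublingual tissue was not tested. *Sox2* lies inside an intron of the noncoding gene *Sox2ot* on the same strand. Of the 16 other Sox genes, 7 were tested and 0 called by edgeR or DESeq2, with a median of −0.36.

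*Kit* stood at 17.1, 26.2, 33.3 and 19.1 CPM in WT and at 22.3, 22.7, 34.5, 24.2 and 30.5 CPM in DKO, with overlap throughout. The log2 fold change was 0.16 (SE 0.20, 95% interval −0.28 to 0.60, edgeR adjusted p = 0.795, exact permutation p = 0.429), and it turned to −0.17 when libraries were scaled by total counts alone, a scaling that shifts the median of all rows by −0.29. Relative to that median it stayed positive, at 0.11. *Kitl*, the ligand, stood at 30.04, 18.0, 26.2 and 22.1 CPM in WT and at 18.1, 18.1, 19.5, 23.6 and 12.9 CPM in DKO. WT replicate 1 was the highest and DKO replicate 5 the lowest. Its log2 fold change was −0.38 (SE 0.18, 95% interval −0.77 to 0.01, unadjusted p = 0.0545, edgeR adjusted p = 0.358, exact permutation p = 0.143), the most negative of the 9 genes, and the interval ends just above 0.

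The 6 fibroblast markers were all negative, with a median of −0.72 and 0 called (1, *Lum*, lower without DKO replicate 4), and their sum was 358 to 586 CPM in WT and 150 to 434 CPM in DKO. Their part in the *Kitl* value was not tested. Mast cells, which also carry KIT, left little signal: 5 of 9 mast cell markers had at most 3 counts in every library, *Cma1* alone could be tested, and the summed level reached 1.87 CPM at most. Of the 6 melanocyte markers, *Dct*, *Tyr*, *Tyrp1* and *Mlana* had at most 3 counts in every library, while *Mitf*, at 7.42 CPM in WT and 7.30 CPM in DKO (log2 −0.02), and *Pmel*, at 1.11 and 1.79 CPM (log2 0.67), were tested and not called.

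Within a library the ratio of *Kit* to *Kitl* per length was 0.378, 0.965, 0.842 and 0.576 in WT and 0.816, 0.834, 1.18, 0.681 and 1.57 in DKO. The DKO mean was higher, but the groups overlapped (0.690 ± 0.264 and 1.01 ± 0.358, log2 difference 0.58, exact two-sided permutation p = 0.190). The KIT signalling list holds mostly adaptors, kinases, phosphatases, GTPases and transcription factors downstream of the receptor, and also ubiquitin ligases and proteases. It had 35 of 37 genes tested, 0 called by edgeR or DESeq2, 19 positive and 16 negative, and a median of 0.01. That median was −0.013 without DKO replicate 1 and −0.014 without DKO replicate 4. Of the listed genes with an unadjusted p under 0.05, *Hras*, a RAS GTPase, was at −0.47 and *Stat5a*, a transcription factor activated by KIT, at 0.31. Their edgeR adjusted p were 0.138 and 0.331.

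**Figure D4:**
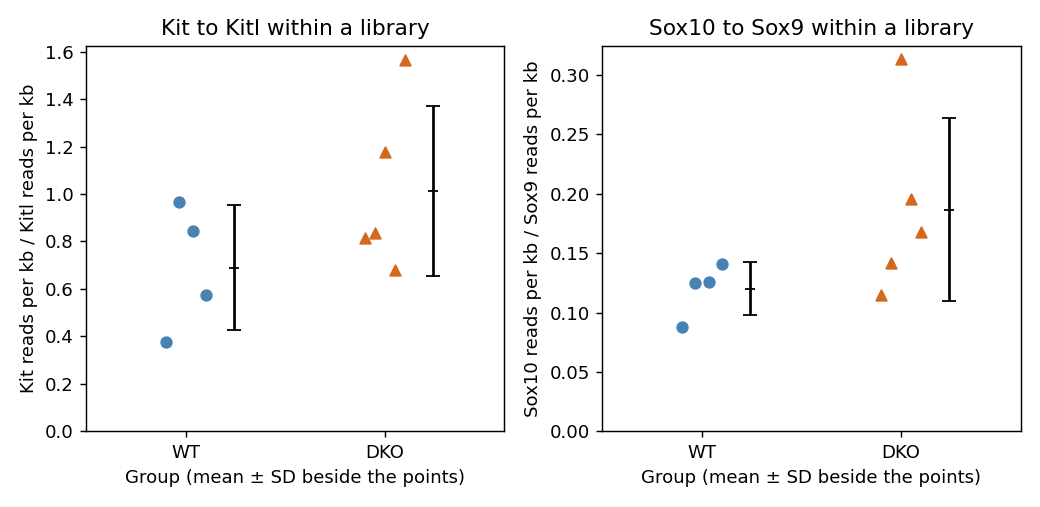
*Kit* to *Kitl* (left) and *Sox10* to *Sox9* (right) as reads per kilobase of exon within each library, for 4 WT (circles) and 5 DKO (triangles) libraries, with mean ± SD beside the points. The DKO means are higher, 1.01 against 0.690 and 0.187 against 0.120, and the groups overlap in both.

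Other epithelial transcription factors showed how the 10 genes compared with factors of the same gland. Of 36 listed, 32 were tested, edgeR called 0 and DESeq2 called 2, and the median was −0.01 with 16 positive and 16 negative. The called factors were *Spdef*, a driver of mucous secretory cells, at a log2 fold change of 0.98 (SE 0.21, adjusted p = 0.0548 by edgeR) with no overlap between 7.10 to 12.5 CPM in WT and 14.9 to 26.8 CPM in DKO, and *Creb3l1*, a secretory-pathway factor, at 0.78. Without DKO replicate 4 edgeR called *Spdef* higher (adjusted p = 0.0277). *Esrrg*, the only other factor of the list without overlap, was lower in DKO at −0.71 (edgeR adjusted p = 0.207). It ranged from 33.9 to 48.9 CPM in WT and from 11.3 to 32.3 CPM in DKO, and neither edgeR nor DESeq2 called it. Of the 3 most abundant factors of the list, *Nfib* was at 0.01, *Xbp1*, a factor of the secretory stress response, at 0.52 and *Ehf* at 0.05, none of them called. In the luminal duct list, edgeR called 0 of 7 and DESeq2 3, with *Krt7* and *Krt19* negative and *Fxyd2* positive, and without DKO replicate 4 edgeR called *Krt7* (adjusted p = 0.0450) and *Krt19* (0.0270) lower. Outside the epithelium, the 6 endothelial markers had a median of 0.27 with 0 called, with *Pecam1*, the most abundant, at 0.27, and 1 marker each of lymphocytes and adipocytes could be tested and was not called. Of the skeletal muscle markers edgeR called *Acta1* lower at −3.65, with 0.994 to 5.22 CPM in WT and 0.0916 to 0.508 CPM in DKO, a call kept in the fits without WT replicate 2 or DKO replicate 4 and lost without any 1 of the other 7 libraries. *Ckm* was at 0.61 in the other direction and *Mylpf* at −0.78, neither called. The 3 parotid markers tested were positive with 0 called, *Bpifa2* at 6.65, *Amy1* at 2.67 and *Dnase1* at 1.41, but without DKO replicate 1 they were at 1.998, −0.86 and 0.54. The sum of all 4 listed was 27.8 to 57.8 CPM in WT and 68.5 to 8138 CPM in DKO, the highest in DKO replicate 1.

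**Figure D5:**
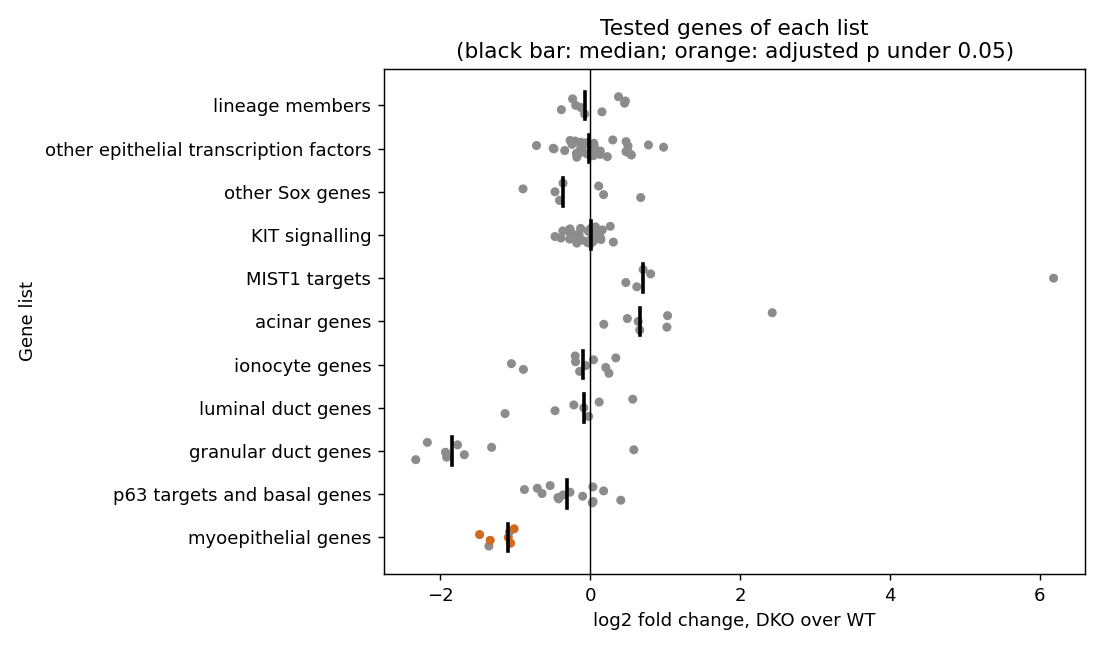
Log2 fold change of DKO over WT for the tested genes of each list (points; orange marks an edgeR adjusted p under 0.05), with the list median as a black bar. The lineage members and KIT signalling genes centre near 0, at −0.07 and 0.01, and the granular duct and myoepithelial genes lie lowest, at −1.84 and −1.09.

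Likeness of library order was scored for each gene as the number of the 36 library pairs placed in the same order. The genes named were picked as the highest of all rows, so their scores are high by choice, and ties were broken by identifier. They were *Rbbp9* (36) and *Dcn* (34), a fibroblast proteoglycan, for *Kitl*, *Cracdl* and *Rab3gap2* (35 each) for *Kit*, *Stk40* (35) and *Rbm25* (34) for *Sox10*, *Recql5* (35) and *Kif26b* (34) for *Tfcp2l1*, *Gm17634* (35) and *Ildr1* (34) for *Sox9*, and *P2ry12* (35) and *Plekhg2* (34) for *Trp63*. For *Elf5* they were *mt-Nd5* and *Eif2s2*, from 3 rows at 34 or more, for *Bhlha15* *Psmc3ip* and *Rps6kb1*, from 5 rows at 34 or more, and for *Ascl3* *Tox4* and *Erh*, from 3 rows at 33 or more. For *Kitl*, 8 rows were at 34 or more, so *Dcn* was taken from several tied rows by identifier alone. For *Sox9* and *Trp63*, 3 rows each were at 34 or more. Among the lineage genes themselves *Sox10* and *Bhlha15* were most alike, at 30 of 36 pairs, and *Elf5* and *Tfcp2l1* least, at 9. These scores are descriptions over 9 libraries, which differ in genotype and depth.

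The numbers in the sample titles fall into 3 ranges, each holding both genotypes, which the labels do not call batches. *Sox10* differed by 0.37, 0.64 and 0.33 on the log2 scale within them, *Bhlha15* by 0.58, 0.46 and 0.09, *Kitl* by −0.36, −0.57 and −0.18 and *Tfcp2l1* by −0.19, −0.15 and −0.37, each in 1 direction. *Elf5* differed by 0.72, −0.52 and 0.70, the negative value in the range that holds DKO replicate 4, and *Kit* by 0.08, −0.29 and 0.83. *Sox9* (0.10, 0.13 and −0.81), *Trp63* (−0.16, −0.28 and 0.28) and *Ascl3* (−0.38, −0.35 and 0.30) also changed sign. In this order the ranges hold 2 WT and 2 DKO libraries, 1 WT and 2 DKO, and 1 WT and 1 DKO. Each difference therefore rests on few libraries.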

How the data were processed

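The authors made 1 library per mouse and deposited raw read counts per gene, the same counts on 17562 filtered rows, and signal values, which are those counts divided by 1 TMM-scaled library size per library. All 158058 signal values gave back whole counts (100%, within 0.001). The submitters' processing notes name STAR 2.5.2a, DESeq2, edgeR and limma, and the builds GRCm38, mm10 and GRCh38. The counter and annotation are not given in the sources used here. Of the raw rows, 7 spike-in rows were left out of library totals.

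DKO was compared with WT by edgeR 4.0.16 (R 4.3.3, TMM factors, filterByExpr with minimum count 10 and total 15, quasi-likelihood test, genotype as the single term, Benjamini-Hochberg over 13842 rows, threshold 0.05). DESeq2 1.42.0, which the paper's methods name, and limma 3.58.1 were alternatives. The recovered reads equal the filtered count table, on which edgeR called 13 genes. Exact permutation tests on log2(CPM + 0.5) were two-sided over all 126 divisions of the libraries into 4 and 5. RPKM used the exon union of GENCODE M21. Floors of 3 counts cover counting error only. Summaries used Python 3.11.15 and pandas 2.3.3. The edgeR test was first run on simulated data with known changes, and the permutation step on small made-up groups. The DESeq2 and limma fits had no such run.

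The genes and the 21 lists were chosen with earlier results of these data known. Named are the 10 lineage genes, the deleted genes, of most lists the called genes (at most 4) or abundant ones, and 2 of the genes most alike in library order to each lineage gene, ties broken by identifier. Genes named for a DESeq2 call, an unadjusted p, groups without overlap or a single library were chosen after their values were seen. Replicates are separate mice. Same-numbered WT and DKO libraries had correlations of deviations of 0.0136 to 0.298, which does not decide whether the numbers are pairs. The labels do not call them pairs, so the numbers were not taken as pairs, and a replicate block was run as an alternative. Of the KIT signalling list, 1 gene is not reported here by name.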

Additional observations from a re-analysis of the deposited data

Results flagged for a closer look

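Among 20 groups checked (10 genes in WT and in DKO), 2 had a library whose gap to its nearest neighbour was large for the range of its group. Chance flags about 1 group in 20. *Elf5* in DKO replicate 4 was 8.46 CPM, a gap of 0.728 of the DKO range, where the other DKO libraries were at 46.1 to 60.2 CPM. *Sox2* in DKO replicate 4 was 0.119 CPM, from 3 counts, where the other DKO libraries had 0. With 0 in all the others, any count gives a gap equal to the range, so the chance rate does not cover this flag.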

How the results depend on the processing

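Across 23 alternative settings for each of the 9 tested genes (207 results), 203 kept direction and side of the threshold, 2 reversed and 2 passed it. *Sox9* reversed to 0.045 without DKO replicate 3 (−0.25 to 0.045 over the libraries left out), *Kit* to −0.17 with total counts only, and both passes were *Elf5*. The number of lineage genes called was 0 in the main analysis and 1 with DKO replicates 1 and 4 both left out, a setting added after seeing the data. With 1 library left out it was 0 to 1, the 1 being *Elf5* without DKO replicate 4. Lineage genes without overlap numbered 0 in the main analysis, 1 with total counts only (*Ascl3*), 1 with both DKO replicates left out (*Elf5*), and 0 to 1 with 1 library left out (*Tfcp2l1* without WT replicate 1, *Elf5* without DKO replicate 4). Over all rows, the groups did not overlap for 6.00% in the main analysis and 10.7% without DKO replicate 4. That share is not given for the other settings, so their counts cannot be set against it. The cause of these changes between settings was not tested.

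The number of genes called over all rows was 87 (23 higher, 64 lower) and depended strongly on the setting: 614 by DESeq2, 148 by limma-voom with sample quality weights, 5 with upper quartile factors, 5 with TMM without the 20 most abundant rows, 357 with total counts only (21 higher, 336 lower), 347 without the low count filter, 13 on the filtered table, 6 by limma-trend with a pseudocount of 1, 332 with the animal-number range as a term and 450 without DKO replicates 1 and 4. The count stayed nearer to 87 with RLE scaling factors (87), limma-trend with a pseudocount of 0.1 (94) and the non-legacy form of edgeR's quasi-likelihood fit (115). Leaving out 1 library gave 0 to 441, the highest without DKO replicate 4. With the replicate block the count was 0. Replicates 1 and 2 correlated best with their own number (0.150 and 0.298) and fall in 1 animal-number range. DKO replicate 3 correlated best with WT replicate 3 (0.0739), but WT replicate 3 did so with DKO replicate 5 (0.0968). WT and DKO replicates 4 each correlated best with another number. The labels do not say what a number stands for. At these depths *Sox2* could not be tested.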
